A study of Mus musculus with 2 samples.

Results

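The genes examined here are the enzymes and transporters through which a cell takes up, recycles, makes and degrades purines. They were taken from a list of 43 gene symbols, and 40 of these were paired with a transcript cluster (a group of probes that together read a gene or a part of one) carrying exactly 1 symbol, out of 19938 genes measured in this way. Impdh2, Gmpr and Gmpr2 had no such cluster in the annotation used, so their expression was not analysed here. The list was drawn up by function and not by measured values, although earlier results of these data were known at the time. BV2 is an immortalized line of mouse microglia, the macrophages of the brain. Cells of this line were kept in DMEM/F12, a nutrient-rich medium, or in DMEM, the standard medium, and total RNA of each culture was hybridized to 1 Affymetrix Mouse Gene 1.0 ST array. Both cultures began in DMEM/F12 according to the methods, and a change of medium 1 d before RNA extraction gave either fresh DMEM/F12 or DMEM. The DMEM culture had thus been switched between media, whereas the DMEM/F12 culture had not. The sample records word the incubation as over 1 d, which need not mean longer than the 1 d of the methods. No genotype or drug differed between the cultures.

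Purine nucleotides come from either of 2 sources. In de novo synthesis the purine ring is built stepwise on phosphoribosyl pyrophosphate (PRPP) to give inosine monophosphate (IMP), from which AMP and GMP are made. In salvage, ready-made bases such as hypoxanthine are joined to PRPP at a much lower energy cost. Hypoxanthine stands where these routes meet, because it is formed from adenosine and inosine, turned back into IMP by HPRT, or oxidized to xanthine and uric acid by xanthine dehydrogenase. The study lists it among the components of DMEM/F12 that DMEM lacks, and the comparison of the arrays shows how the genes that handle it were expressed in either medium.

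Values below are on the log2 scale, as deposited. Each difference is that of DMEM/F12 after subtraction of DMEM, so a positive one means a higher value in DMEM/F12. Neither medium was replicated, so no error can be attached to a value and no p-value was calculated. A difference therefore describes these 2 arrays, and the medium cannot be told apart from any other difference between the cultures. In bulk RNA, fewer cells that express a gene and less RNA of it per cell cannot be told apart either. Background was the level that 95% of 1247 clusters of sensory receptor genes (smell, pheromone and bitter taste) did not exceed. It was 4.16 in DMEM/F12 and 4.14 in DMEM. Of the 40 purine genes, 33 lay above it on at least 1 array, compared with 13276 of all 19938 genes. Levels of different genes are not compared, since each cluster has its own probes.

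Of 11 measured marker genes of microglia and macrophages, 9 lay above background, with differences between -0.66 (Tmem119) and 0.40 (Trem2), whereas Aif1 and P2ry12 were below it on both arrays. Markers of neurons lay above background for 2 of 5 genes (Rbfox3 and Gad1, at most 4.68), of astrocytes for 1 of 5 (Slc1a2, at most 4.59) and of oligodendrocytes for 3 of 4 (Mog, Mbp and Cnp, at most 6.85). Their part in the results below was not tested.

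As a group, the purine genes differed little between the arrays. Of the 40 genes, 18 were higher and 22 lower in DMEM/F12, with a median difference of -0.03, beside 47.2% higher, 45.5% lower and a median of 0.00 over all genes. The median size of the difference, without its sign, was 0.16 in the purine genes and 0.15 over all genes. Among the 33 purine genes above background, 22 differed by less than 0.2 in size, beside 8866 of all 13276 genes above background. The 4 purine genes above background that differed most were Adssl1, which was higher in DMEM/F12, and Ada, Ampd2 and Itpa, which were lower.

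**Figure D1:**
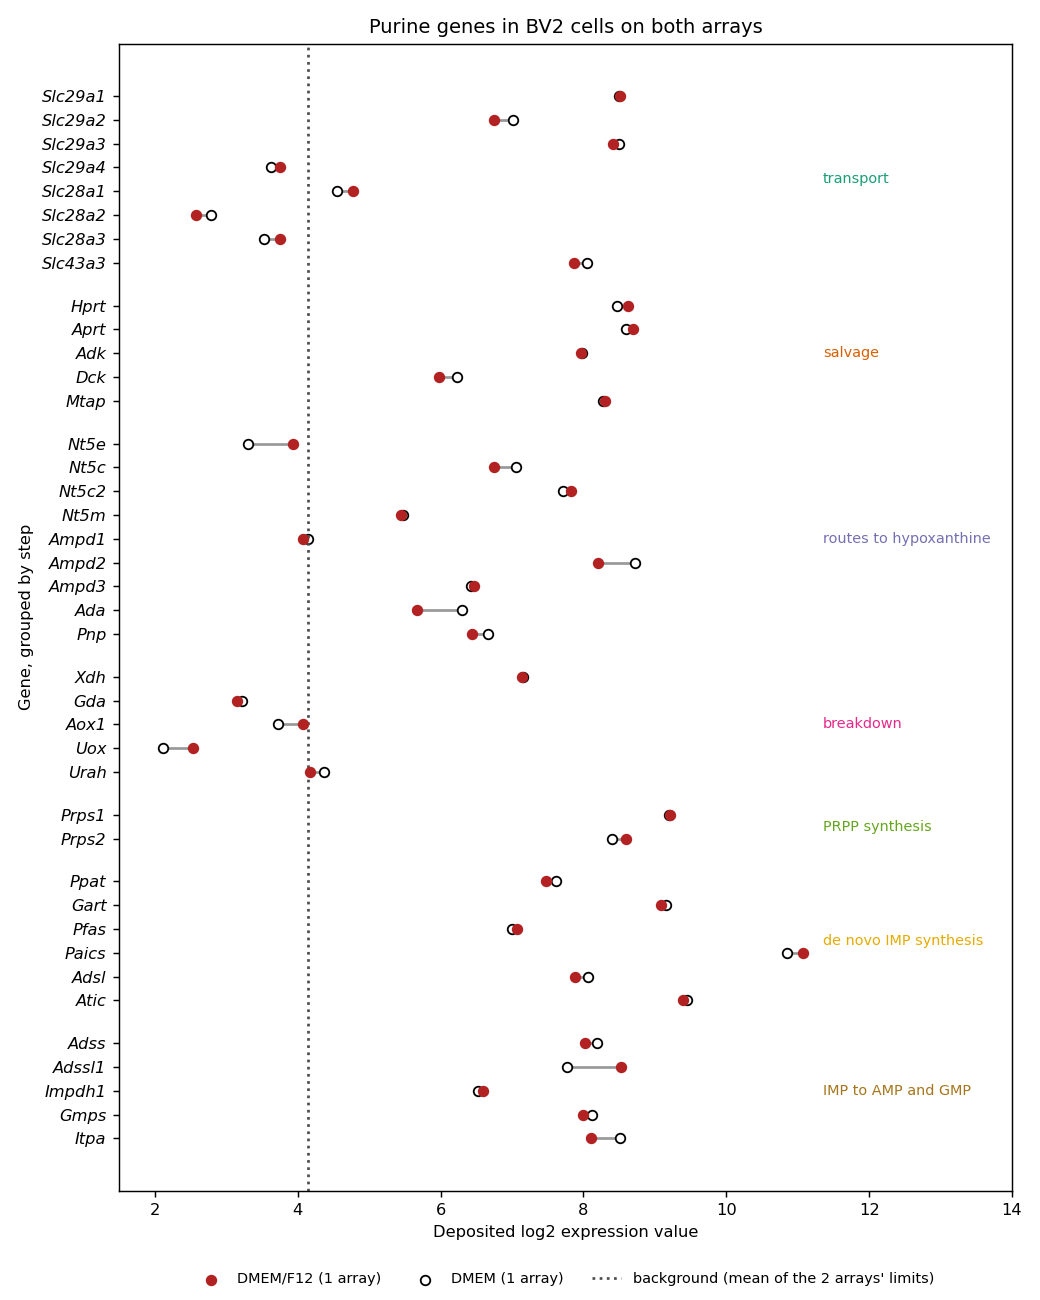
Deposited log2 expression value (x axis) of the 40 measured purine genes (y axis, grouped by step) on the DMEM/F12 array (red circles) and the DMEM array (open circles), joined by a gray line for each gene. The dotted line marks background; most pairs nearly coincide, while Adssl1 lies further right in DMEM/F12 (8.52 against 7.77) and Ada further left (5.67 against 6.30).

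A 1.5-fold or larger excess in DMEM/F12 was seen for 2 of the 40 genes, Adssl1 and Nt5e, where 0.928% of all genes measured had one. A deficit of that size was seen for 1 of the 40, Ada, beside 0.727% of all genes. Nt5e was below background on both arrays. Counting genes above background alone, 1 of 33 was at least 1.5-fold higher, beside 0.783% of 13276 genes, and 1 of 33 was lower, beside 0.633%. At a lower threshold of 0.32 on the log2 scale, 4 of the 40 genes (10%) were higher, beside 7.22% of all genes, and 3 (7.5%) were lower, beside 6.5%. The additional genes were Uox and Aox1 (higher, both below background) and Ampd2 and Itpa (lower). Above background these counts were 1 higher and 3 lower of 33, beside 6.06% and 5.98%. The shares of the 40 purine genes at this threshold were thus near those of all genes, and counts of 1 or 2 genes at 1.5-fold say little about the group.

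**Figure D2:**
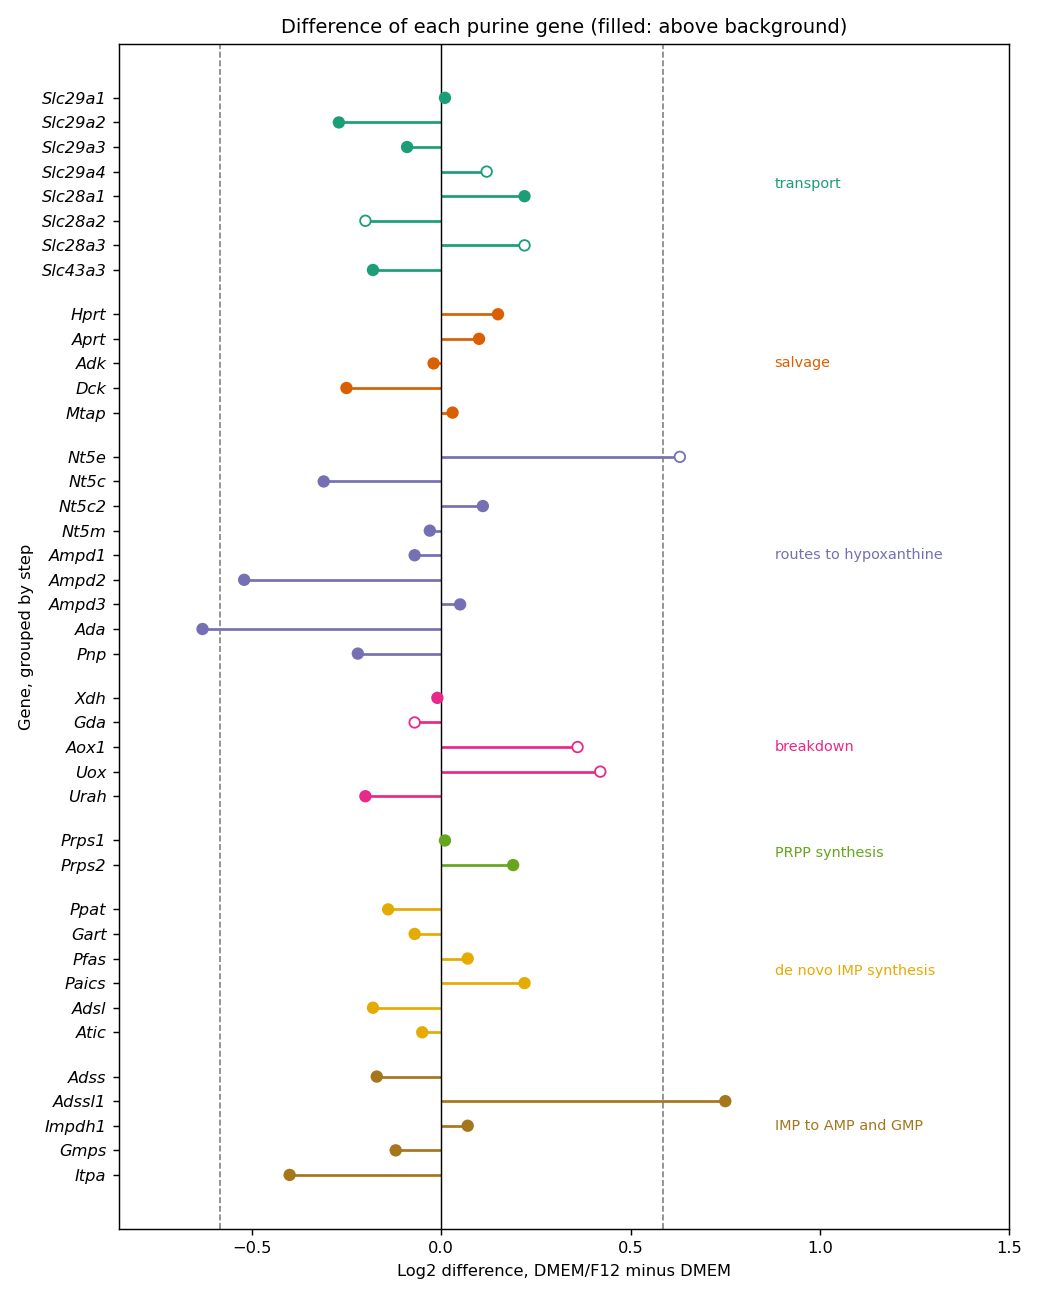
Difference between the arrays for each measured purine gene (y axis, coloured by step), as the log2 value in DMEM/F12 less that in DMEM (x axis). Filled circles are genes above background on at least 1 array and open circles genes that were not; dashed lines mark 1.5-fold, which Adssl1 (0.75), Ada (-0.63) and, below background, Nt5e (0.63) passed.

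Hypoxanthine and nucleosides cross the membrane through carriers, and 8 of these were on the list. In the equilibrative family, which lets its substrates pass down their gradient and is the target of dipyridamole, Slc29a1 had 8.51 in DMEM/F12 and 8.50 in DMEM, a difference of 0.01. Slc29a2, which carries nucleobases such as hypoxanthine as well as nucleosides, had 6.75 in DMEM/F12 and 7.02 in DMEM (-0.27). Slc43a3, a purine nucleobase carrier, had 7.87 in DMEM/F12 and 8.05 in DMEM (-0.18). None of these 3 carriers differed by more than 1.21-fold. Slc29a3, which works mainly in lysosomes, had 8.41 in DMEM/F12 and 8.50 in DMEM (-0.09). Slc29a4, a carrier of organic cations and adenosine, was below background on both arrays (3.75 in DMEM/F12, 3.63 in DMEM). Of the concentrative carriers, which import nucleosides together with sodium, only Slc28a1 lay above background, at 4.77 in DMEM/F12 and 4.55 in DMEM (0.22). Slc28a2 and Slc28a3 gave no signal above background in either medium, with values of 2.58 and 3.75 in DMEM/F12 and 2.78 and 3.53 in DMEM. Over the 8 carriers the median difference was -0.04, with 4 higher and 4 lower.

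All 5 salvage genes were above background, and their median difference was 0.03. Hprt, whose product makes IMP from hypoxanthine and GMP from guanine, had 8.62 in DMEM/F12 and 8.47 in DMEM, a difference of 0.15 or 1.11-fold. Of the 13276 genes above background, 24.3% were at least as far up. Aprt, the counterpart for adenine, had 8.69 in DMEM/F12 and 8.59 in DMEM (0.10). Both phosphoribosyltransferase genes were thus marginally higher in DMEM/F12, by less than the SD of 0.22 that the differences of all genes above background had. Mtap, which releases adenine from methylthioadenosine, a by-product of polyamine synthesis, differed by 0.03 (8.30 in DMEM/F12, 8.27 in DMEM). The nucleoside kinases bypass the bases. Adenosine kinase, Adk, differed by -0.02 (7.96 in DMEM/F12, 7.98 in DMEM), and deoxycytidine kinase, Dck, which also accepts purine deoxynucleosides, by -0.25 (5.98 in DMEM/F12, 6.23 in DMEM).

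Oxidation removes hypoxanthine from the pool. Xdh, which encodes the xanthine dehydrogenase/oxidase that allopurinol inhibits, had 7.14 in DMEM/F12 and 7.15 in DMEM, a difference of -0.01. Of the other 4 genes of breakdown, 3 lay below background on both arrays. Gda, which deaminates guanine to xanthine, had 3.15 in DMEM/F12 and 3.22 in DMEM. Aox1, an aldehyde oxidase related to xanthine dehydrogenase, had 4.08 in DMEM/F12 and 3.72 in DMEM. Uox, urate oxidase, which mice have and humans lack, had 2.53 in DMEM/F12 and 2.11 in DMEM. The nominal differences of Aox1 (0.36) and Uox (0.42) became 0.00 once values below background were raised to it, as did that of Nt5e. This follows by definition, since both values of each gene lay below it. Urah, which acts on the product of urate oxidase, was barely above background, with 4.17 in DMEM/F12 and 4.37 in DMEM (-0.20). Urad, which follows Urah in the pathway and was not on the list, had 5.01 in DMEM/F12 and 5.21 in DMEM (-0.20). Signal for Xdh was thus present and nearly equal in both media.

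Within the routes that lead to hypoxanthine, 6 of 9 genes were lower in DMEM/F12 and the median difference was -0.07. Over all genes measured, 45.5% were lower and the median was 0.00, and a count over 9 genes says little about the step. Adenosine deaminase, Ada, turns adenosine into inosine. Its values were 5.67 in DMEM/F12 and 6.30 in DMEM, a difference of -0.63 or 1.55-fold lower, and it was among the 51 of 13276 genes above background that were at least this much lower. Ampd2, an AMP deaminase that turns AMP into IMP, had 8.20 in DMEM/F12 and 8.72 in DMEM, a difference of -0.52 or 1.43-fold lower, and 147 genes were at least as far down. Both deaminase genes were thus lower in DMEM/F12. The other AMP deaminases differed less: Ampd3, the isoform first known from red blood cells, differed by 0.05 (6.47 in DMEM/F12, 6.42 in DMEM), and Ampd1, the muscle isoform, stood at background with 4.08 in DMEM/F12 and 4.15 in DMEM. Pnp, the purine nucleoside phosphorylase that splits inosine into hypoxanthine and ribose phosphate, had 6.44 in DMEM/F12 and 6.66 in DMEM (-0.22).

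The nucleotidases take the phosphate off nucleotides, and their genes did not differ in one direction. Nt5c, a cytosolic deoxynucleotidase, had 6.75 in DMEM/F12 and 7.06 in DMEM (-0.31). Nt5c2, which prefers IMP and GMP, had 7.82 in DMEM/F12 and 7.71 in DMEM (0.11), and the mitochondrial Nt5m differed by -0.03 (5.45 in DMEM/F12, 5.48 in DMEM). Nt5e encodes CD73, which makes adenosine from AMP outside the cell, and with 3.93 in DMEM/F12 and 3.30 in DMEM it was below background on both arrays. Its difference of 0.63 equals that of Ada in size, with the opposite sign, and rests on signal no stronger than that of sensory receptor genes.

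**Figure D3:**
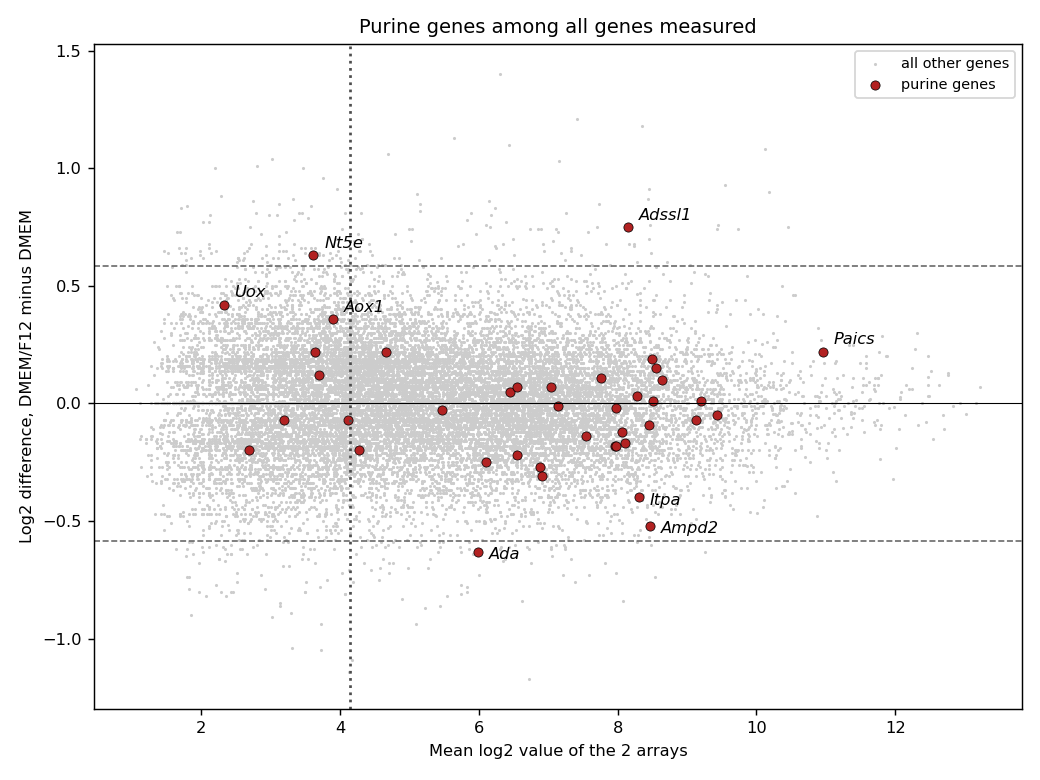
Difference between the arrays in log2 units, positive where DMEM/F12 was higher (y axis), against the mean log2 value of both arrays (x axis) for all 19938 genes (gray) with the 40 purine genes in red. Dashed lines mark 1.5-fold and the dotted line background; Adssl1 lies above and Ada below the dashed lines to the right of background, while Nt5e, Uox and Aox1 lie to its left.

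The genes of de novo synthesis differed little. PRPP, the sugar phosphate shared by synthesis and salvage, is made by the products of Prps1 (9.21 in DMEM/F12, 9.20 in DMEM) and Prps2 (8.59 in DMEM/F12, 8.40 in DMEM), with differences of 0.01 and 0.19. Ppat, whose product catalyses the committed step and is inhibited by purine nucleotides, had 7.47 in DMEM/F12 and 7.61 in DMEM (-0.14). The trifunctional Gart had 9.09 in DMEM/F12 and 9.16 in DMEM (-0.07), and Pfas, which encodes an early enzyme of the pathway, had 7.07 in DMEM/F12 and 7.0 in DMEM (0.07). Paics, a bifunctional enzyme gene of the middle steps, had 11.07 in DMEM/F12 and 10.85 in DMEM (0.22). Adsl, used here and again on the way to AMP, had 7.88 in DMEM/F12 and 8.06 in DMEM (-0.18), and Atic, which closes the ring, had 9.40 in DMEM/F12 and 9.45 in DMEM (-0.05). The 6 genes from Ppat to Atic were all above background, 2 were higher and 4 lower, and their median difference was -0.06, with a median size of 0.11. No coordinated difference of this pathway between DMEM/F12 and DMEM was seen on these arrays, and without replicates a small one cannot be detected.

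Paics was higher (0.22) and Ppat lower (-0.14) in DMEM/F12. Of the genes above background, 14.5% were at least as far up as Paics and 24.7% at least as far down as Ppat. Paics and Ppat are neighbours. They start on opposite strands of chromosome 5, with annotated start sites 276 bases apart, and their 5′ ends overlap. Their promoter windows (250 bases before to 50 bases after the start site, from RefSeq, GRCm38.p6) are shown because these genes share a locus and differed in sign. Capitals mark CACGTG, the E-box, a motif that MYC-family proteins bind and that reads the same on both strands. The Paics window is chr5:76951052-76951351 on the plus strand and the Ppat window chr5:76951529-76951828 on the minus strand, each written 5′ to 3′.
Paics: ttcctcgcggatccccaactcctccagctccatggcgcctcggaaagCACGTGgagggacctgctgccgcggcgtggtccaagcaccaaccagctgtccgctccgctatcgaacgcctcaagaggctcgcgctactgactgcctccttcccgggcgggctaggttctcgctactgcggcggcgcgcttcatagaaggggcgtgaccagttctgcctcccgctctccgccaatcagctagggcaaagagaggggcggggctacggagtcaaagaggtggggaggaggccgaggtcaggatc
Ppat: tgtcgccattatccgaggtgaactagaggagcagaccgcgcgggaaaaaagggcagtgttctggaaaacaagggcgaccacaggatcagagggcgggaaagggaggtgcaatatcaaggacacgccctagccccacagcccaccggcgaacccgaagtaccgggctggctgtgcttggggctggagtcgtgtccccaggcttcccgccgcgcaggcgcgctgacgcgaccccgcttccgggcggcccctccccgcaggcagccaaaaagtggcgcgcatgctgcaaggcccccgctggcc
The motif occurred 1 time in the Paics window, beginning at position -203 from the start site, and was absent from these letters of the Ppat window. The Paics window lies downstream of the Ppat start site, so the motif belongs to the shared locus. Only the choice of windows assigns it to Paics and not to Ppat. The bases between the windows were not searched. Of the 6 de novo genes, 5 had a promoter in the table and 2 of these, Paics and Atic, held the motif in their single window, beside 8.09% of 27025 genes with a match in any of their windows and 7.15% of all 32851 windows. Over the whole list of 43, 39 genes had at least 1 window, including the 3 whose expression was not analysed, and 6 held the motif. Besides Paics and Atic these were Impdh2, with 1 window, and Slc29a1, Nt5c2 and Ampd3, which held it in only 1 of their 8, 7 and 3 windows. Paics was higher in DMEM/F12, while Atic, which also held the motif, was lower (-0.05). A match is a run of letters, and binding was not measured. A link between the motif and the differences was not tested.

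The largest difference on the list lay at the branch from IMP to AMP. Adenylosuccinate synthetase starts this branch and has a pair of isozymes. Adssl1, the isozyme abundant in muscle, had 8.52 in DMEM/F12 and 7.77 in DMEM, a difference of 0.75 or 1.68-fold, and it was among the 34 of 13276 genes above background that were at least this much higher. Adss, the isozyme of most other tissues, had 8.02 in DMEM/F12 and 8.19 in DMEM (-0.17). The isozyme genes thus had differences of opposite sign, but that of Adss was smaller than the SD of 0.22 over all genes above background. Adsl, which completes the branch, was also slightly lower (-0.18), again by less than this SD. AMP deaminase, adenylosuccinate synthetase and adenylosuccinate lyase together form the purine nucleotide cycle, which passes AMP to IMP and back. Of its 6 genes on the list, Adssl1 on the way to AMP and Ampd2 on the way to IMP differed most, the first higher and the second lower in DMEM/F12.

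In the guanine branch, Impdh1, which oxidizes IMP toward GMP, had 6.59 in DMEM/F12 and 6.52 in DMEM (0.07), and Gmps, which completes GMP, had 8.0 in DMEM/F12 and 8.12 in DMEM (-0.12). Neither differed by more than 1.09-fold. Itpa hydrolyses inosine triphosphate to IMP. It was the one listed gene with 2 clusters that name no other gene, which had 7.95 and 8.27 in DMEM/F12 and 8.35 and 8.67 in DMEM. The difference was -0.40 in each, or 1.32-fold for their mean, so the clusters did not disagree, although they share the RNA and are not replicates.

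A further 40 genes outside the list, of purine metabolism or close to it, were examined, of which 33 were measured and 27 lay above background. Of the 33, 16 were higher, 16 lower and 1 equal, with a median difference of 0.00. Above background, 3 of 27 were higher by 0.32 or more and 2 of 27 lower by as much, beside the 6.06% and 5.98% of all genes above background given earlier. Nudt1, which clears oxidized purine nucleotides, had 5.44 in DMEM/F12 and 4.83 in DMEM (0.61), and Ak1, a cytosolic adenylate kinase, had 5.49 in DMEM/F12 and 4.91 in DMEM (0.58). Mocos, which activates the molybdenum cofactor of xanthine dehydrogenase and aldehyde oxidase, had 5.65 in DMEM/F12 and 5.21 in DMEM (0.44). These genes were higher in DMEM/F12. The lower ones were Adal, a relative of Ada, with 5.46 in DMEM/F12 and 5.88 in DMEM (-0.42), and Nt5c3, a pyrimidine nucleotidase, with 5.00 in DMEM/F12 and 5.36 in DMEM (-0.36). Adal was thus lower in DMEM/F12 as Ada was, but it is named for the size of its difference, and a shared change was not tested. The partner proteins of PRPP synthetase, Prpsap1 and Prpsap2, differed by -0.07 and -0.14.

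**Figure D4:**
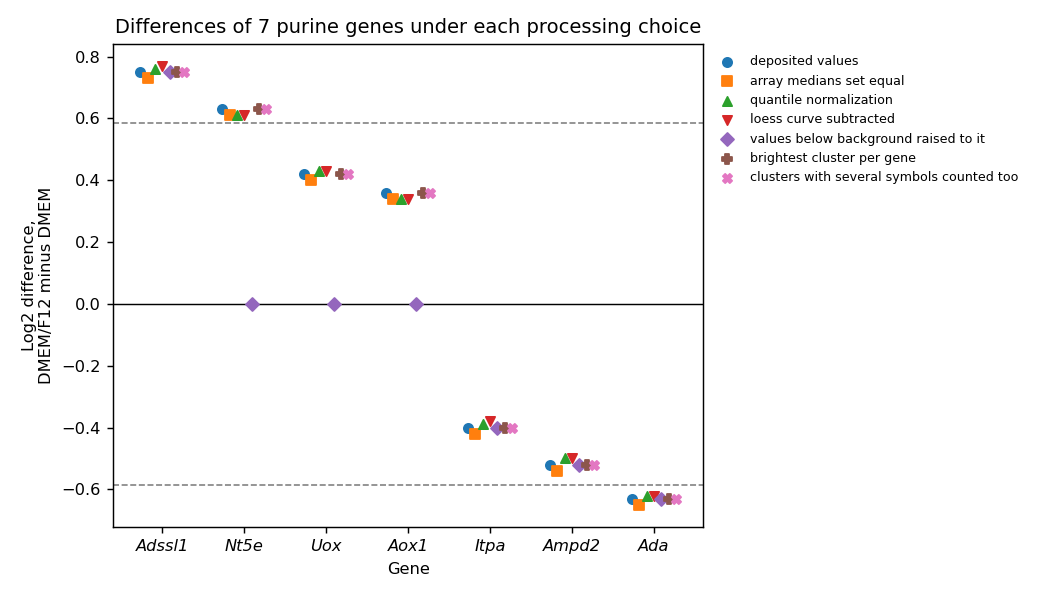
Difference in log2 units, positive where DMEM/F12 was higher (y axis), of the 7 purine genes that differed by 0.32 or more (x axis), with 1 marker for each processing choice; dashed lines mark 1.5-fold. Adssl1, Itpa, Ampd2 and Ada, all above background on both arrays, kept their differences within 0.1 under each choice. Raising values below background to it cannot move such genes. Nt5e, Uox and Aox1 were below background on both arrays, so that choice set their differences to 0.00 by definition.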

How the data were processed

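Total RNA of BV2 cells was hybridized to 2 Affymetrix Mouse Gene 1.0 ST arrays, 1 per medium. The file deposited by the authors holds a log2 value per array for 28944 transcript clusters. The Expression Console and the Transcriptome Analysis Console of Affymetrix are named in the submitters' processing notes. The sources used here do not give their versions, the genome build, or how probes were summarized and arrays normalized. The array medians were 4.77 in DMEM/F12 and 4.75 in DMEM, and no further scaling was applied. Symbols came from the platform annotation, in which 21789 clusters had exactly 1 symbol, and clusters of a gene were averaged. The 40 measured genes all matched RefSeq by Entrez number. The members, the lists and the alternatives were chosen with earlier results of these data known. Every measured member is named, and other purine genes above background that differed by 0.32 or more on the log2 scale. With 1 array per medium, no test was run, and precision is limited by the number of arrays. The steps were tested on simulated data. The planted differences were larger than any of the listed genes, and the noise was lower than the spread of differences here. That check bears on the code and not on differences of the size reported. Python 3.11.15, numpy 2.4.6, pandas 2.3.3, statsmodels 0.14.6 (loess, span 0.3) and matplotlib 3.10.9 were used.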

Additional observations from a re-analysis of the deposited data

How the results depend on the processing

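No paired analysis was possible because only 1 array was made for either medium. Shifts of up to 0.1 (log2) in a value and of up to 1.5 times in a count were disregarded. Setting the array medians equal, quantile normalization, a loess correction, the brightest cluster per gene and counting clusters with several symbols were compared. None exceeded these limits for any gene, any step median or any count of genes past 1.5-fold, but several of these choices could change little. Equal medians shift all genes by the same small amount (array medians of 4.77 in DMEM/F12 and 4.75 in DMEM). Among the listed genes, the brightest cluster could act only on Itpa, and clusters with several symbols only on Pnp. With equal array medians 16 purine genes were higher and 24 lower, beside 8824 and 10814 of all genes. Raising values below background to it set the differences of 7 genes to 0.00, as it must for a gene below background on both arrays. For 6 of them the shift was above 0.1 (Slc29a4, Slc28a2, Slc28a3, Nt5e, Aox1 and Uox), while Gda moved only from -0.07. The 2 genes at least 1.5-fold higher became 1 with values raised to background or with only genes above background, 0 at 2-fold and 4 at a threshold of 0.32. The 1 lower gene became 0 at 2-fold and 3 at 0.32. Differences of dim genes are limited by signal over background.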

Other observations

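Some purine genes were read only, or also, by clusters that name another gene, so that their signal cannot be assigned. A cluster shared by Pnp and its neighbour Pnp2 had 7.63 in DMEM/F12 and 8.02 in DMEM, a difference of -0.39, while the cluster of Pnp alone differed by -0.22. A cluster shared by Ak6, an adenylate kinase of the nucleus, and Taf9, a subunit of the basal transcription machinery, had 6.48 in DMEM/F12 and 7.02 in DMEM, a difference of -0.54. The 3 clusters shared by Ahcy, which splits S-adenosylhomocysteine into adenosine and homocysteine, and Gm4737 differed by 0.08, 0.09 and 0.11.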
